A study of Mus musculus with 10 samples.

Results

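Prolactin acts on mammary epithelium through its receptor Prlr, which has no kinase activity of its own and relies on the bound tyrosine kinase Jak2. Jak2 phosphorylates the transcription factors Stat5a and Stat5b, which pair up, enter the nucleus and bind DNA at sites of the form TTCNNNGAA. Cish, Socs2 and Socs3 are brakes that STAT factors switch on and that act back on the receptor or the kinase. In the mammary gland Stat5a is known for its role in alveolar cells and luminal progenitors, Stat3 for its role in involution after lactation, and Stat6 as the factor downstream of the interleukin-4 receptor.

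The 10 genes described here were taken by name from this pathway: the receptors Prlr and Ghr (the growth hormone receptor, which uses the same kinase), the kinase Jak2, the transcription factors Stat5a, Stat5b, Stat3 and Stat6, and the brakes Socs2, Socs3 and Cish. All 10 were among the 24594 genes of the count table, and all 10 were among the 14609 genes with enough counts to be tested. Transcript levels were measured by RNA-seq in luminal cells, which line the ducts, and basal cells, which wrap them and can contract, of wild-type C57BL/6J mice. The cells came fresh from virgin mammary glands and were separated by flow cytometry on EpCAM and CD49f. Each cell type had 5 libraries, and no allele, transgene or agent was given in the labels. The study's methods state that its mice in general were 12 to 20 weeks old when used. The labels give no age for these animals, nor whether several were pooled or their oestrous stage.

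The titles of all 10 libraries name the opposite cell type from the cell type label, the source name and the library description. The cell type label set the groups here, and lineage markers bore on that choice as follows. The summed level of 7 basal markers was 40.7 to 118 CPM (depth-scaled counts) in luminal libraries and 12750 to 17558 CPM in basal libraries. The summed level of 6 luminal markers was 12881 to 17899 CPM in luminal and 1772 to 2470 CPM in basal libraries. Both sums followed the cell type label and not the titles. Both kinds of luminal cell were represented in the luminal libraries, where 6 markers of hormone-sensing cells summed to 1485 to 1856 CPM and 5 markers of luminal progenitors to 891 to 2955 CPM. Library totals ran from 13203146 to 17998165 counts. Summed over 6 adipocyte markers the level was 0.611 to 2.26 CPM in luminal and 3.95 to 9.13 CPM in basal libraries, with no count of Adipoq in any library. Over 5 endothelial markers it was 2.69 to 7.10 CPM in luminal and 7.002 to 13.9 CPM in basal libraries, and over 7 immune markers 20.2 to 25.5 CPM in luminal and 36.6 to 54.2 CPM in basal libraries. Over 7 fibroblast markers it was 22.1 to 115 CPM in luminal and 36.1 to 52.7 CPM in basal libraries, and 95.1 CPM of the highest sum, in luminal replicate 1, was Dcn alone. Over 3 red cell markers it was 4.74 to 18.3 CPM in luminal and 0.546 to 2.28 CPM in basal libraries. Hba-a1 made up most of it in luminal libraries, at 3.37 to 15.9 CPM against 0 to 0.188 CPM in basal libraries, where Alas2 made up most of it. The study describes lineage antibodies against blood and endothelial cells in its sorts. The part of these cells in the results on the 10 genes was not tested. In such bulk samples, fewer cells of a type and less RNA per cell cannot be told apart.

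The genes lie on 5 chromosomes of GRCm38.p6, the assembly behind mm10. Prlr (Entrez 19116) is at chr15:10177238-10349190 and Ghr (Entrez 14600) at chr15:3317755-3583352. Jak2 (Entrez 16452) is at chr19:29251803-29313095 and Stat6 (Entrez 20852) at chr10:127642955-127660987. Stat5b (Entrez 20851), Stat5a (Entrez 20850) and Stat3 (Entrez 20848) are neighbours on chromosome 11, at chr11:100780731-100859004, chr11:100859351-100885169 and chr11:100886806-100939594. Between these RefSeq positions 346 bases separate Stat5b from Stat5a and 1636 bases separate Stat5a from Stat3. In GENCODE M21, from which exons and lengths were taken, Stat5a and Stat3 overlap at their ends on opposite strands, over 1.01% of the exon bases of Stat5a and 0.756% of those of Stat3, and without strand, reads there cannot be told apart. Socs3 (Entrez 12702) is at chr11:117966079-117970336, Socs2 (Entrez 216233) at chr10:95383903-95417321 and Cish (Entrez 12700) at chr9:107296659-107302784.

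The letters TTCNNNGAA read the same on both strands. They were searched in the RefSeq promoter windows of GRCm38.p6, each 300 bases long from 250 bases before a start site onwards. Of the 10 genes, 9 had at least 1 window, 14 in all, and the motif was found in 1 window each of Prlr, Socs3 and Cish. It was found in 8.30% of all 32851 windows. The other spacing, TTCNNNNGAA, was in no window of the 10 genes and in 6.95% of all windows. These matches are given because the genes' factor binds this motif, and they describe letters, not binding. The 30 bases around each match follow, with the motif in capitals. The Cish stretch is at chr9:107296654-107296683 on the plus strand, the Socs3 stretch at chr11:117969496-117969525 on the minus strand, and the Prlr stretch at chr15:10223791-10223820 on the plus strand.
Cish: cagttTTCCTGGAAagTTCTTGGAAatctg
Socs3: cagccTTCTTAGAAgggaggggggggaaag
Prlr: atgagTTCTAGGAAtaagggatatcagagg

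Cish held 2 matches, which began 1 and 12 bases into the transcript when the start site is counted as base 1. The match of Socs3 began 154 bases before its start site and that of Prlr 110 bases before the second of its 3 start sites. The Socs3 stretch lies within the span of the gene given above. Annotated exons cover 77 of the 250 bases before the start site of Socs3 and all 250 before that of Cish. The 250 bases before that second Prlr start site, at chr15:10223656-10223905 on the plus strand, overlap no annotated exon. They are shown in full because Prlr had the largest difference among the 10 genes.
Prlr: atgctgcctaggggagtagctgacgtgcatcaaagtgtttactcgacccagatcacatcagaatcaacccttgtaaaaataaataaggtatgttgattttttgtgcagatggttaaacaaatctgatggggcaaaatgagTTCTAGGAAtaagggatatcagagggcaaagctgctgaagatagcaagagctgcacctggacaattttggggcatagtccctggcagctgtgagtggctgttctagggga

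Which members of the pathway differ between luminal and basal cells was asked first. Prlr, Jak2, Stat5a, Stat5b and Socs3 were higher in luminal cells, and Ghr, Stat3, Stat6 and Socs2 were higher in basal cells (edgeR's quasi-likelihood test, Benjamini-Hochberg adjusted p under 0.05). Cish did not pass. Prlr passed the count filter only through the luminal libraries, where it is high, so the numbers of genes given here that include it are a description. Of all genes tested, 64.8% passed in either direction, 33.6% towards luminal and 31.2% towards basal cells, so a call alone was common in this comparison. The groups did not overlap for 5 of the 10 genes (Prlr, Jak2, Stat5a, Stat5b and Stat6), against 50.1% of all genes tested. The median log2 fold change, luminal against basal, was 0.18 over the 10 genes and 0.05 over all genes tested. Prlr, Jak2, Stat5a, Stat5b and Stat6 kept their call and direction under every alternative that gave a value. The other 4 called genes differed by 1.34 to 1.37-fold and lost their call under at least 2 alternatives each.

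**Figure D1:**
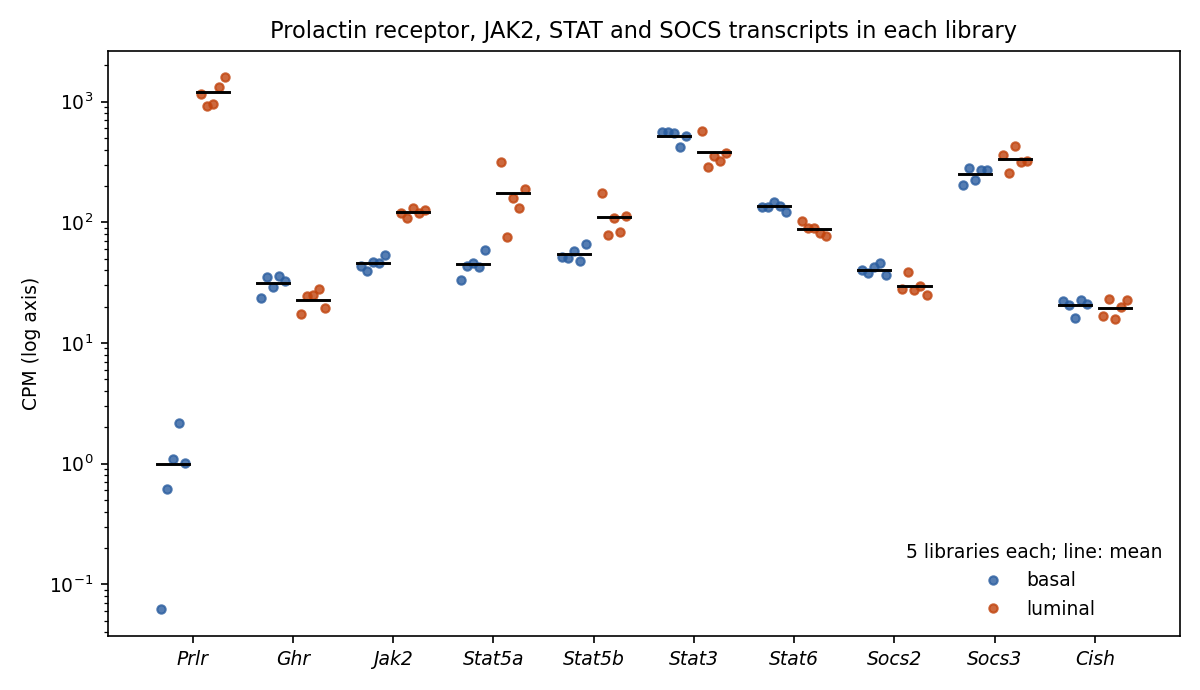
CPM (logarithmic axis) of the 10 genes in each library, basal in blue and luminal in red, 5 libraries each, with the group mean as a line. Prlr spans 0.0624 to 2.19 CPM in basal and 914 to 1587 CPM in luminal libraries, while the other genes stay within 1 order of magnitude between the groups.

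Prlr had the largest difference. The luminal libraries, replicates 1 to 5, held 1166, 914, 959, 1326 and 1587 CPM, and the basal libraries held 0.0624, 0.614, 1.08, 2.19 and 1.02 CPM. Every luminal library lay far above every basal library, and basal replicate 1 held a single Prlr count against 15636 counts in the luminal library with the fewest. This gave a log2 fold change of 10.21 ± 0.51 (SE, n = 5 per group, edgeR adjusted p = 8.45e-10), a 1187-fold difference with a 95% interval of 9.11 to 11.32 on the log2 scale. Prlr had 1 to 35 counts in the basal libraries and passed the count filter only through the luminal libraries, where it is high. With 10 counts required in every library it was not tested, so its p-value is a description. In basal libraries Prlr stood at 0.00524% to 0.184% of its luminal mean. That upper end was below that of each of the luminal, hormone-sensing and progenitor markers measured the same way, among which Aldh1a3 reached 0.431%, Cd14 0.447%, Elf5 0.542%, Foxa1 0.876% and Kit 0.935%. By the median basal library, Elf5 (0.0841%) and Prlr (0.0856%) were level, and the upper end of Elf5 came from basal replicate 1. Basal replicate 4 had the most Prlr and was the highest basal library for 4 of these 17 luminal markers. Replicate 1 was highest for 5 of them, replicate 3 for 6 and replicate 5 for 2. The basal sum of the 6 hormone-sensing markers was, like Prlr, lowest in replicate 1 (28.9 CPM) and highest in replicate 4 (76.2 CPM). The other basal sums peaked elsewhere, the 6 luminal markers in replicate 1 (2470 CPM) and the 5 progenitor markers in replicate 3 (36.8 CPM). The part of luminal cells in these Prlr counts was not tested.

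Ghr, the other receptor of the 10, went the opposite way and by little. Luminal libraries held 17.3, 24.5, 25.1, 27.9 and 19.4 CPM, and basal libraries 23.4, 35.5, 29.0, 36.1 and 32.5 CPM. The groups overlapped, since basal replicate 1 lay below 3 luminal libraries. This was a log2 fold change of -0.45 ± 0.17 (SE, n = 5 per group, edgeR adjusted p = 0.0324). The call was lost in 6 of the 10 fits that left out 1 library, namely luminal replicate 1, 2 or 5 or basal replicate 2, 4 or 5, with an adjusted p of up to 0.0881.

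Jak2, the kinase that both receptors use, was the most even of the genes higher in luminal cells. Luminal libraries held 119, 108, 130, 119 and 127 CPM and basal libraries 43.7, 39.7, 46.5, 46.3 and 53.6 CPM. The lowest luminal library held about 2 times the CPM of the highest basal library. The difference came to 1.39 ± 0.12 on the log2 scale (SE, n = 5 per group, edgeR adjusted p = 2.20e-07), or 2.63-fold.

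Stat5a and Stat5b, the factors that carry the prolactin signal, were both higher in luminal cells, Stat5a by more. Stat5a stood at 314, 75.6, 160, 132 and 187 CPM in luminal and at 33.4, 43.7, 46.1, 42.6 and 59.4 CPM in basal libraries. Luminal replicate 1 was highest and replicate 2 lowest, 4.15-fold apart, and even replicate 2 lay above all basal libraries. The log2 fold change of Stat5a was 1.95 ± 0.30 (SE, n = 5 per group, edgeR adjusted p = 5.22e-05), or 3.86-fold. Without luminal replicate 1 it was 1.64.

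Stat5b stood at 173, 77.8, 107, 83.5 and 112 CPM in luminal and at 51.4, 50.6, 58.1, 47.4 and 65.5 CPM in basal libraries. Again the groups did not overlap, and again luminal replicate 1 was highest and replicate 2 lowest. Its log2 fold change was 1.02 ± 0.20 (SE, n = 5 per group, edgeR adjusted p = 0.000465), or 2.03-fold. The transcripts of these neighbouring genes are alike in part: 16.2% of the 51-base windows of the longest Stat5a coding transcript and 11.6% of those of Stat5b also occur in transcripts of another gene, mainly of each other. How reads from such stretches were counted is not given in the sources used here.

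Stat3 and Stat6 were higher in basal cells. Stat3 stood at 571, 286, 355, 320 and 373 CPM in luminal and at 561, 561, 545, 417 and 523 CPM in basal libraries. Luminal replicate 1 lay above every basal library, while the 4 other luminal libraries lay below every basal library. Over all libraries the log2 fold change was -0.45 ± 0.19 (SE, n = 5 per group, edgeR adjusted p = 0.0461). Without luminal replicate 1 it was -0.63 with an adjusted p of 0.00275, and in 8 of the 10 fits that left out 1 library the call was lost, at an adjusted p of up to 0.120. Those 8 left out any library other than luminal replicate 1 or basal replicate 4.

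Stat6 differed with little spread. Luminal libraries held 102, 89.7, 89.7, 80.8 and 76.7 CPM and basal libraries 134, 135, 147, 137 and 122 CPM. All luminal libraries lay below all basal libraries. On the log2 scale the difference was -0.62 ± 0.12 (SE, n = 5 per group, edgeR adjusted p = 0.000423), so that Stat6 was 1.54-fold higher in basal cells.

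The 3 brakes did not move together. Socs2, an inhibitor best known from growth hormone signalling, stood at 27.8, 38.7, 27.2, 29.5 and 24.9 CPM in luminal and at 40.2, 37.7, 42.8, 45.8 and 36.5 CPM in basal libraries. Luminal replicate 2 was the only luminal library within the basal range. The log2 fold change of Socs2 was -0.45 ± 0.15 (SE, n = 5 per group, edgeR adjusted p = 0.0148), a call lost with library totals alone and with upper-quartile factors. In all, 18.2% of the 51-base windows of its longest coding transcript also occur in another gene, mainly Gm9847.

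Socs3, the brake most tied to Stat3 and the gp130 receptors, stood at 358, 254, 430, 317 and 321 CPM in luminal and at 203, 283, 222, 271 and 269 CPM in basal libraries. Only luminal replicate 2 fell within the basal range. Its log2 fold change was 0.43 ± 0.16 (SE, n = 5 per group, edgeR adjusted p = 0.0313). The call was lost under 5 of 19 alternatives. It was lost without luminal replicate 3 (0.30, edgeR adjusted p = 0.116), without basal replicate 1 or 3 and with no filter on low counts. It was also lost with a replicate block (0.42, edgeR adjusted p = 0.0637). Across the alternatives the adjusted p ranged from 0.00683 to 0.116.

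Cish, whose start site carries the motif matches shown above, was level between the cell types. It stood at 16.7, 23.3, 15.6, 19.7 and 22.6 CPM in luminal and at 22.4, 20.7, 16, 22.8 and 21.0 CPM in basal libraries, and the groups covered the same range. Its log2 fold change was -0.07 ± 0.17 (SE, n = 5 per group, edgeR adjusted p = 0.724), with a 95% interval of -0.43 to 0.28. With library totals alone (0.12) and with upper-quartile factors (0.05) the value was above 0, since both scalings move all genes towards luminal by more than the distance of Cish from 0. Of the 51-base windows of its longest coding transcript, 15.7% also occur in another gene, mainly the antisense gene Gm17041.

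**Figure D2:**
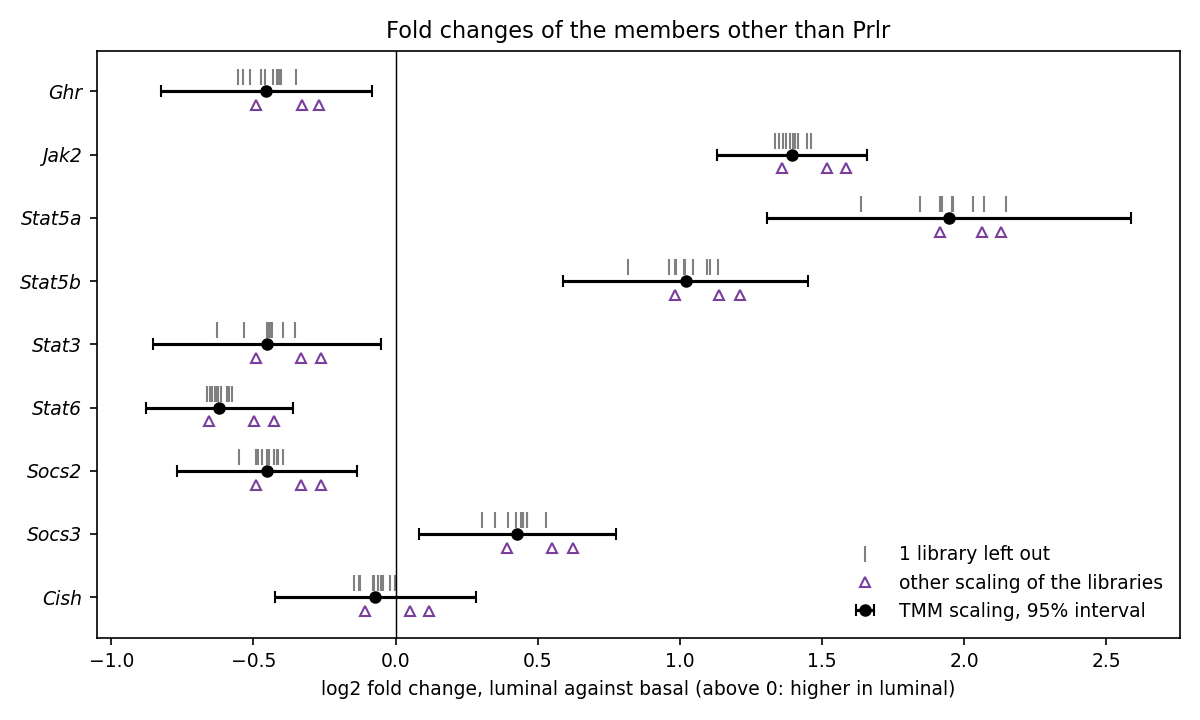
Log2 fold change, luminal against basal, of the 9 genes other than Prlr, with the 95% interval of the TMM-scaled fit in black, fits without 1 library as grey ticks and fits with other library scalings as open triangles. Cish, at -0.07, has points on both sides of 0, while the points of the other 8 genes stay on their own side.

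The calls of Ghr, Stat3 and Socs2 depended on how the libraries were scaled. TMM factors were 0.993 to 1.17 in luminal and 0.892 to 0.960 in basal libraries, and library totals alone moved the median of all genes by 0.19 and upper-quartile factors by 0.12 on the log2 scale, towards luminal. With library totals alone the log2 fold changes of Ghr, Stat3 and Socs2 were -0.27, -0.26 and -0.26 and none of these genes was called. A change of scaling moves all genes by about the same amount, so these fits cannot show which scaling is nearer the truth.

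Levels between genes were compared per kilobase of the longest coding transcript. In luminal cells Socs3 (132 ± 25.3 CPM per kilobase, SD, n = 5) and Prlr (120 ± 27.9) led, followed by Stat3 (63.1 ± 18.4), Stat5a (44.7 ± 22.8), Jak2 (24.0 ± 1.70), Stat6 (23.3 ± 2.62) and Stat5b (21.2 ± 7.28). Socs2 (13.3 ± 2.40 CPM per kilobase), Cish (6.87 ± 1.20) and Ghr (5.47 ± 1.04) came last. Each neighbour in this luminal order overlapped the next in range, apart from Socs2 and Cish.

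In basal cells the order per kilobase was Socs3 (97.9 ± 13.7 CPM per kilobase, SD, n = 5), Stat3 (86.3 ± 10.02), Stat6 (35.8 ± 2.35), Socs2 (18.3 ± 1.70), Stat5a (11.6 ± 2.41), Stat5b (10.5 ± 1.39), Jak2 (9.14 ± 1.01), Ghr (7.50 ± 1.26), Cish (7.22 ± 0.945) and Prlr (0.100 ± 0.0790). Socs3 and Stat3 overlapped in range, as did each neighbour from Stat5a down to Cish. The others in this order did not overlap the next. Prlr thus ranked second in luminal and last in basal cells, and Jak2 at place 5 and place 7. Dividing by the length of all annotated exons, a choice made after seeing the data, kept the first 5 places in luminal cells and the first 3 and the last 3 in basal cells, but lowered some levels by more than 1.5 times. Socs2 fell to 3.11 CPM per kilobase in luminal and 4.26 in basal cells, where it moved from place 4 to place 7. By that length Jak2 stood at place 5 in both cell types. In luminal cells Cish fell to 3.05, Ghr to 2.52, Stat5a to 24.4, Stat3 to 39.99 and Prlr to 77.6 CPM per kilobase, with the basal levels lowered in the same proportion. Since the aligner does not split reads, exon junctions also bear on such levels: they lie in 28.2% of the 51-base windows of Stat6 and 24.1% of those of Jak2, but in 1.998% of those of Socs3 and 4.57% of those of Prlr.

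Ratios of genes within 1 library do not depend on how libraries are scaled, and 5 such ratios of counts were compared between the cell types (exact two-sided permutation tests, Benjamini-Hochberg adjusted over the 5, where 0.00794 is the smallest p that 5 against 5 libraries allow). There were 0.972 to 1.81 Stat5a counts per Stat5b count in luminal and 0.651 to 0.908 in basal libraries. The difference of the log2 ratio was 0.85 ± 0.18 (SE, n = 5 per group, exact permutation p = 0.00794, adjusted p = 0.0132). The groups did not overlap, although luminal replicate 2, the library lowest in Stat5a, came close to the basal range.

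The balance of the receptors turned over. There were 37.3 to 81.6 Prlr counts per Ghr count in luminal and 0.00399 to 0.0614 in basal libraries, a log2 difference of 11.18 ± 0.72 (SE, n = 5 per group, exact permutation p = 0.00794, adjusted p = 0.0132). Prlr thus made up nearly all of the counts of these receptors in luminal cells and few of them in basal cells. Prlr passed the count filter only through the luminal libraries, where it is high, so the p-value of this ratio is a description. The adjustment over the 5 ratios includes it.

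The balance of Stat3 and Stat5a also differed. There were 1.82 to 3.79 Stat3 counts per Stat5a count in luminal and 8.80 to 16.8 in basal libraries, a log2 difference of -2.31 ± 0.25 (SE, n = 5 per group, exact permutation p = 0.00794, adjusted p = 0.0132). The groups did not overlap.

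Socs2 against Cish moved by less, from 1.74 to 2.67 Socs2 counts per Cish count in basal to 1.10 to 1.74 in luminal libraries (log2 difference -0.39 ± 0.16, SE, n = 5 per group, exact permutation p = 0.0159, adjusted p = 0.0198). The highest luminal and the lowest basal library were level. Stat3 against Stat6 overlapped between the cell types, at 3.19 to 5.58 counts in luminal and 3.03 to 4.29 in basal libraries (log2 difference 0.14 ± 0.17, SE, n = 5 per group, exact permutation p = 0.444).

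**Figure D3:**
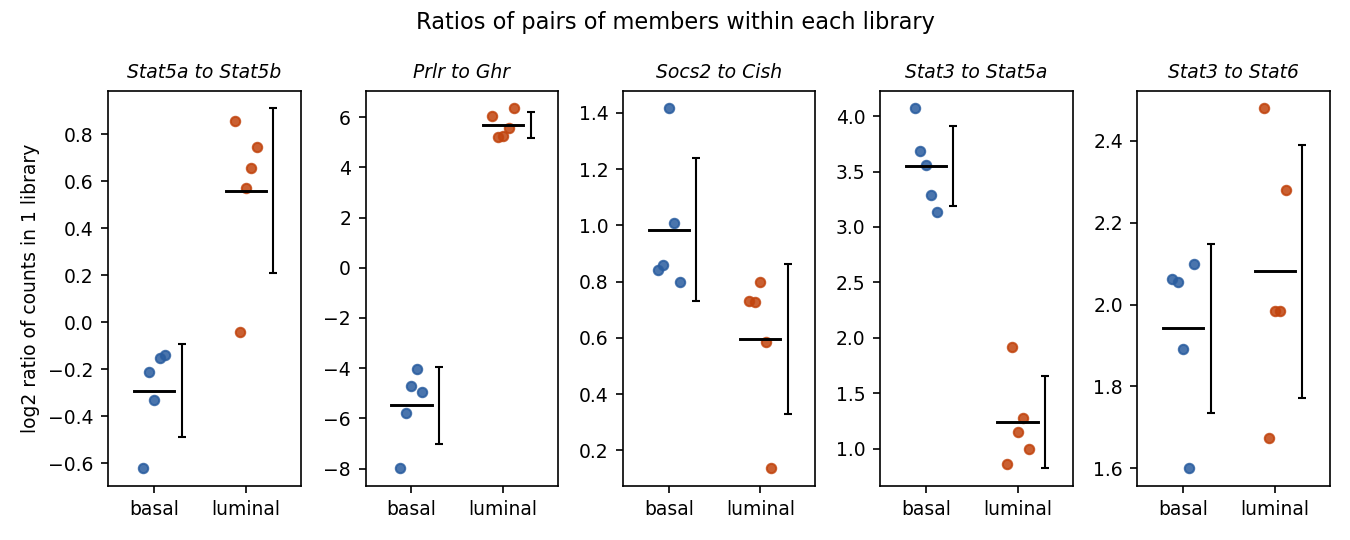
Log2 ratio of the counts of a pair of genes in each library, basal in blue and luminal in red (5 libraries each), with the mean as a line and the SD as a bar; each panel has its own axis. The groups separate for Stat5a to Stat5b, Prlr to Ghr and Stat3 to Stat5a, touch for Socs2 to Cish, and overlap for Stat3 to Stat6.

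The spread within the luminal libraries was not the same for all genes. Jak2 varied by a coefficient of variation of 7.08%, Stat6 by 11.2% and Prlr by 23.2%, whereas Stat5b varied by 34.3% and Stat5a by 51.1%. Luminal replicate 1 was the highest luminal library for 4 of the 10 genes, which were the 4 STAT genes. Luminal replicate 2 was the lowest for 6 of them (Prlr, Jak2, Stat5a, Stat5b, Stat3 and Socs3), yet the highest for Socs2 and Cish.

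The progenitor markers summed to 2955 CPM in luminal replicate 1, 2027 CPM in replicate 5 and 891 to 953 CPM in the other 3 luminal libraries, and Cd14 was the largest part of these sums. The 4 progenitor markers without Cd14 summed to 894, 491, 445, 403 and 843 CPM in luminal replicates 1 to 5. The hormone-sensing markers had no common order: luminal replicate 1 was highest for 1 of the 6 and lowest for 2, and replicate 2 was highest for 3 and lowest for 1. With 5 libraries no relation between these levels and the STAT genes was tested. Among basal libraries Stat5a ranged from 33.4 CPM in replicate 1 to 59.4 CPM in replicate 5, a coefficient of variation of 20.8%.

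**Figure D4:**
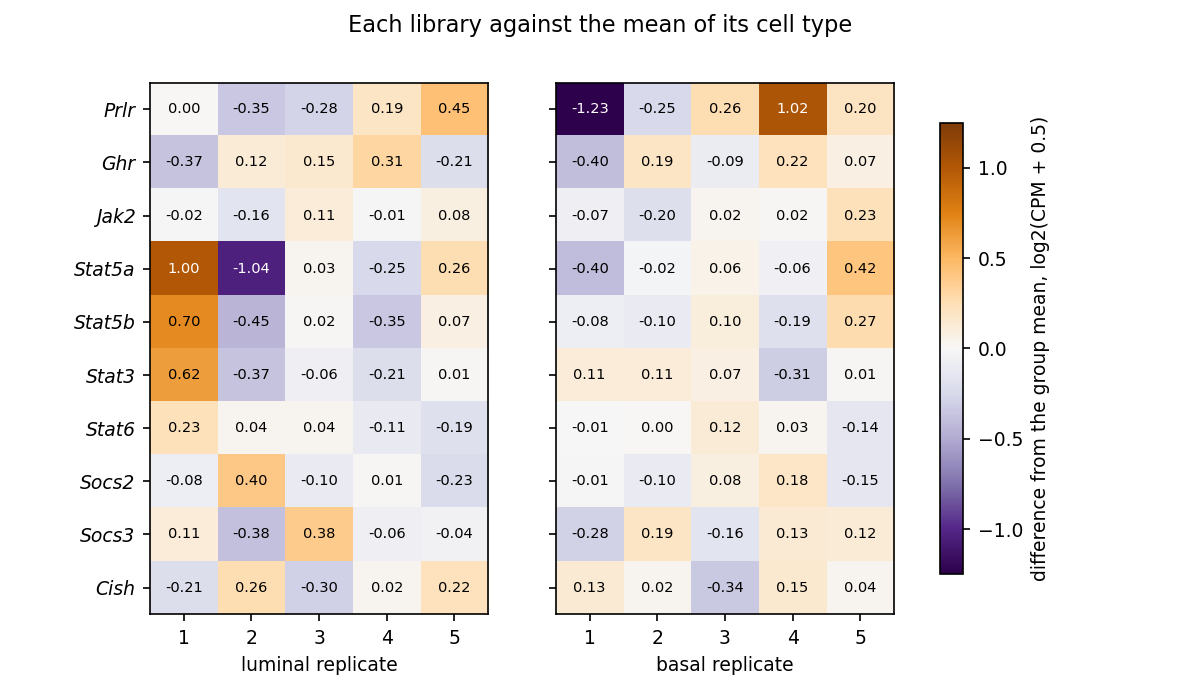
Difference of each library from the mean of its cell type, in log2(CPM + 0.5), for the 10 genes (rows) in luminal and basal replicates 1 to 5 (columns), orange above and purple below the mean. Luminal replicate 1 lies above and replicate 2 below the luminal mean for Stat5a (1.00 and -1.04), Stat5b (0.70 and -0.45) and Stat3 (0.62 and -0.37).

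Kinases, phosphatases and brakes outside the 10 genes split between the cell types. Of 21 such genes, all tested, 6 stood higher in luminal cells and 7 in basal cells, beside 33.6% and 31.2% of all genes tested, and the median log2 fold change was -0.11. Jak3, the kinase that partners the common gamma chain of interleukin receptors, was 53.8 ± 13.8 CPM in luminal and 6.03 ± 1.67 CPM in basal libraries (SD, n = 5 each; log2 fold change 3.15, edgeR adjusted p = 4.20e-08). The phosphatases Ptpn6 and Ptpn1, both known to act on JAK kinases, were also higher in luminal cells, by 1.61 and 1.23 on the log2 scale. Ptpn1, like Stat5a, was highest in luminal replicate 1 (379 CPM) and lowest in replicate 2 (140 CPM) of the luminal libraries.

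Brakes on the basal side included Socs1, at 1.73 ± 0.619 CPM in luminal and 9.06 ± 2.47 CPM in basal libraries (SD, n = 5 each; log2 fold change -2.39, edgeR adjusted p = 9.56e-06). Sh2b3, an adaptor that restrains Jak2, and Socs7 had log2 fold changes of -1.17 and -1.09, and for these 3 genes the groups did not overlap. With library totals alone, 4 genes of this list in place of 7 were higher in basal cells.

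Of 20 other cytokine receptor genes, 15 were tested, of which 6 stood higher in luminal cells and 6 in basal cells, beside 33.6% and 31.2% of all genes tested, with a median log2 fold change of 0.37. Il6st, the gp130 chain shared by the receptors of interleukin-6, interleukin-11 and oncostatin M, was 183 ± 49.6 CPM in luminal and 398 ± 41.9 CPM in basal libraries (SD, n = 5 each; log2 fold change -1.12, edgeR adjusted p = 0.000139). The ligand-binding chain Il6ra went the other way, at 1.06 on the log2 scale (edgeR adjusted p = 0.00648), with overlapping groups. Il10rb, a chain of the interleukin-10 and interleukin-22 receptors, was also higher in luminal cells, at 0.95 (edgeR adjusted p = 0.000313) and without overlap. Low receptors also passed: the leptin receptor Lepr was 1.71 ± 0.809 CPM in luminal and 0.194 ± 0.159 CPM in basal libraries, Csf2rb was 0.226 ± 0.263 and 2.01 ± 1.09 CPM, and the erythropoietin receptor Epor was 0.517 ± 0.345 and 1.37 ± 0.428 CPM (SD, n = 5 each). Lepr, with at most 7 counts in a basal library, passed the count filter only through the luminal libraries, where it is high. Csf2rb and Epor, with at most 10 and 20 counts in a luminal library, passed mainly through the basal libraries, where they are high. The counts of 6 and 6 are therefore a description. The call of Epor was lost without luminal replicate 1 or 5 or basal replicate 2 or 5, at a log2 fold change of -1.22 to -1.31. Csf2rb, at -3.10 over all libraries, was at -3.92 without luminal replicate 5. With library totals alone, 3 receptors in place of 6 were higher in basal cells.

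No count of Prl (prolactin) or Gh (growth hormone), the ligands of the receptors above, was found in any library, which allows a level of up to 0.158 to 0.232 CPM per library from 3 counts. Of 11 ligand genes, 6 were tested and 4 of them were higher in basal cells, beside 31.2% of all genes tested. Il6 and Il11 had few luminal counts (at most 20 and 16 in a library) and passed the count filter mainly through the basal libraries, where they are high, so the count of 4 is a description. With 10 counts required in every library neither was tested, and 2 ligands were higher in basal cells. Il11, a ligand of the gp130 receptors, was 0.562 ± 0.401 CPM in luminal and 9.31 ± 5.78 CPM in basal libraries (SD, n = 5 each; log2 fold change -4.02, edgeR adjusted p = 3.48e-05). Il6 had a log2 fold change of -2.77 (edgeR adjusted p = 0.0163) at 0.426 ± 0.600 and 2.95 ± 1.53 CPM, and Csf3 of -2.69 (edgeR adjusted p = 1.13e-06) at 2.05 ± 0.792 and 13.2 ± 2.28 CPM (luminal and basal, SD, n = 5 each). DESeq2 did not call Il6 (adjusted p = 0.0532), and without luminal replicate 5 its log2 fold change was -3.71.

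The early-response genes that tissue dissociation is known to induce moved in the same comparison. Of 12 tested, 10 were higher in basal cells and 2 in luminal cells, beside 31.2% and 33.6% of all genes tested. Dusp1, Ier3 and Jun had log2 fold changes of -2.07, -1.91 and -1.32. The 2 higher in luminal cells, the heat shock genes Hspa1a and Hspa1b at 1.20 and 1.17, are near-identical copies whose counts cannot be separated with certainty. The 10 genes without these copies summed to 2384 to 3166 CPM in luminal and 4588 to 7440 CPM in basal libraries, which did not overlap, and Hspa1a and Hspa1b to 2286 to 4236 CPM in luminal and 892 to 2765 CPM in basal libraries. Their part in the levels of Il6, Il11, Socs1, Socs3 and Stat3 was not tested.

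Of 15 genes that prolactin and Stat5 are known to control, 7 could be tested. Of those, 5 were higher in luminal cells and 1 in basal cells, beside 33.6% and 31.2% of all genes tested. Elf5 and Tnfsf11, with at most 8 and 1 counts in a basal library, passed the count filter only through the luminal libraries, where they are high, so the count of 5 is a description. With 10 counts required in every library neither was tested, and 3 of these genes were higher in luminal cells and 1 in basal cells. Elf5, the transcription factor of alveolar differentiation, was 92.0 ± 31.8 CPM in luminal and 0.165 ± 0.197 CPM in basal libraries (SD, n = 5 each; log2 fold change 9.02, edgeR adjusted p = 1.08e-09). It was at 9.97 without basal replicate 1, which held 8 of the 13 basal counts of Elf5. Csn3, which encodes kappa-casein, stood at 1197, 413, 538, 426 and 883 CPM in the luminal libraries and at 1.498 to 4.43 CPM in the basal libraries (log2 fold change 8.05, edgeR adjusted p = 1.44e-09). Tnfsf11 (RANKL), the paracrine signal of hormone-sensing cells, was 6.24 ± 3.05 CPM in luminal libraries (SD, n = 5) and had 30 to 136 counts in each luminal library against 0 to 1 in each basal library.

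The other milk protein genes of that list, Csn1s1, Csn1s2a, Csn1s2b, Csn2, Wap, Lalba and Glycam1, had too few counts to be tested, with at most 40 counts in any library, as did Igf1. Pim1, a kinase gene that STAT factors induce, was 53.8 ± 7.75 CPM in luminal and 297 ± 60.1 CPM in basal libraries (SD, n = 5 each; log2 fold change -2.46, edgeR adjusted p = 1.94e-08). Elf5 is also among the 5 progenitor markers, all of which were higher in luminal cells.

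Of 10 genes that Stat3 is known to control in mammary epithelium, 6 stood higher in luminal cells and 3 in basal cells, beside 33.6% and 31.2% of all genes tested, with a median log2 fold change of 0.92. Hp and Lrg1, with 4 to 27 and 6 to 68 counts in the basal libraries, passed the count filter only through the luminal libraries, where they are high. The count of 6 and the median are therefore a description, and under the alternatives that count was 4 to 6. Hp (haptoglobin), Cd14 and Lrg1, genes of the acute-phase and innate immune response, had log2 fold changes of 10.57, 8.51 and 7.19. Without basal replicate 4 Lrg1 was at 8.26, and without basal replicate 3 Hp was at 11.26. Their luminal levels were spread widely, at 165 to 2208 CPM for Hp, 461 to 2061 CPM for Cd14 and 92.5 to 361 CPM for Lrg1, and luminal replicate 1 was highest and replicate 2 lowest for all 3. Cd14 is also among the progenitor markers. On the basal side Myc, Ctsl and Pik3r1 had log2 fold changes of -2.82, -1.19 and -0.73, and Myc was 50.6 ± 9.38 CPM in luminal and 357 ± 65.2 CPM in basal libraries (SD, n = 5 each). The call of Pik3r1 (edgeR adjusted p = 0.0367) was lost without luminal replicate 2, 3 or 4 or basal replicate 2 or 3, with upper-quartile factors (-0.62, adjusted p = 0.0647) and with library totals alone (-0.55, adjusted p = 0.102).

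**Figure D5:**
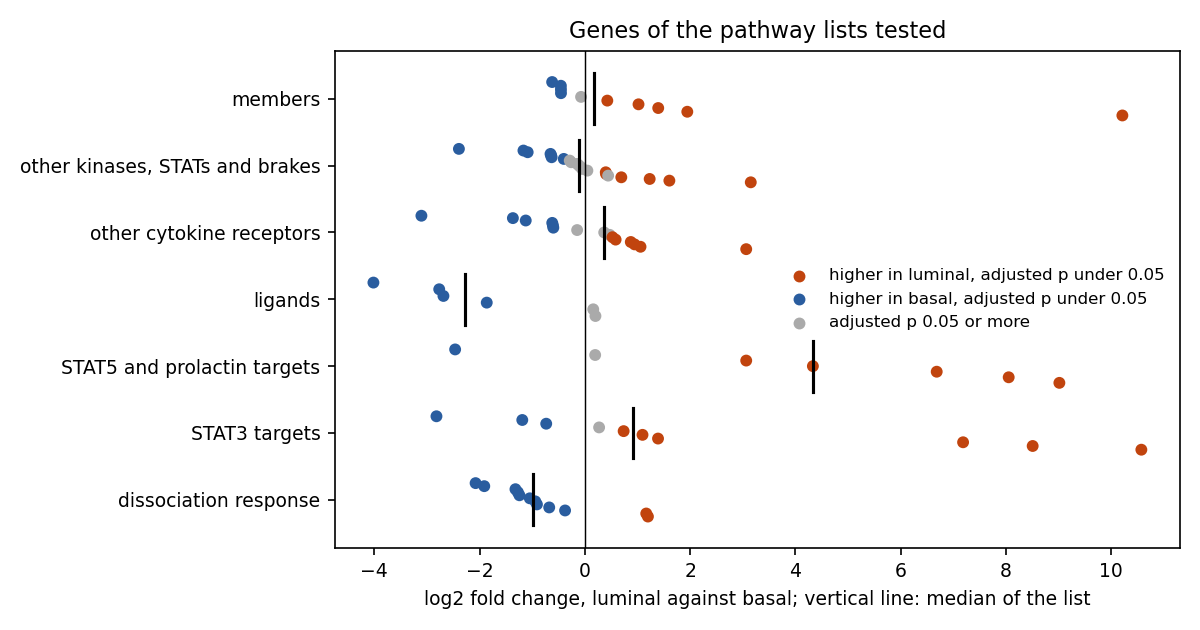
Log2 fold change, luminal against basal, of the tested genes of each list, red where higher in luminal and blue where higher in basal cells at an adjusted p under 0.05, grey otherwise, with the list's median as a vertical line. The tested ligands run from -4.02 to 0.20 and the tested Stat5 and prolactin targets from -2.46 to 9.02, and lines and points leave out genes with too few counts.

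The genes whose pattern was most like that of Prlr were sought over the 10 libraries, among 10794 genes whose mean reached 10 CPM in either cell type, by the root mean square difference of centred log2(CPM + 0.5). They were Ltf (lactoferrin, difference 0.71), Gpx3 (a secreted glutathione peroxidase, 0.74) and Wfdc18 (0.78), with 1508, 3246 and 486 CPM in luminal and 1.75, 5.70 and 0.586 CPM in basal cells. For Stat6, the gene with the lowest fold change of the 10, they were Coro7 (0.0968), Spcs2 (0.0985), a signal peptidase subunit, and Sec61a1 (0.104), a channel subunit of the endoplasmic reticulum. This measure is set mainly by the size of the difference between the cell types, which all 10 libraries share.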

How the data were processed

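The values deposited by the authors are whole-number counts for each gene, not normalized, in 1 table of 10 libraries (5 luminal, 5 basal). The submitters' processing notes name cutadapt 4.2, Bowtie2 2.3.5.1 and the builds mm10 and hg19; for mouse RNA-seq the study describes poly(A) selection, single-end reads of 51 bases and mm10. The counting tool, its annotation and its handling of strand and of reads shared by several genes are not given in the sources used here. Bowtie2 does not split reads across introns. The study's methods speak of biological replicates for RNA-seq but give a smaller number per condition than the 5 libraries here, and the labels do not say that these came from separate animals, so p-values measure the spread between these libraries, which may be technical. No 2 libraries of a group agreed within sampling noise (chi-square per degree of freedom of at least 14.4).

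Entrez identifiers were matched to RefSeq symbols of GRCm38.p6 (24570 of 24594). Genes were filtered with filterByExpr (minimum count 10, minimum total 15), scaled by TMM and tested with edgeR 4.0.16 in R 4.3.3 (quasi-likelihood, cell type as the only term, Benjamini-Hochberg over all 14609 genes, threshold 0.05). The SE is the log2 fold change over the square root of F. CPM is the usual depth scale, on the TMM-scaled total, and precision is set by totals of 13203146 to 17998165 counts. Intervals and floors (3 counts per library) rest on these counts. Ratios used a pseudocount of 0.5 counts and exact permutation tests (SciPy 1.17.1). Transcript lengths, exons and shared windows came from GENCODE M21.

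The 10 genes, the lists, the ratios and the tests were chosen with earlier results of these data known. Genes named from the other lists are up to 3 per list and direction with the largest fold change among those called whose mean reached 1 CPM in either cell type; others are named to account for a list. Alternatives were other scalings (DESeq2 1.42.0 size factors, upper quartile, library totals), other filters, DESeq2, limma 3.58.1 voom, thinning to the smallest total, a replicate block and leaving out each library.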

Additional observations from a re-analysis of the deposited data

Results flagged for a closer look

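Stat3 in basal replicate 4, at 417 CPM, stood apart from the other 4 basal libraries, at 523 to 561 CPM. Another 4 values among the genes named from the other lists stood apart in the same way. Lrg1 was 4.25 CPM in basal replicate 4 against 0.374 to 1.01 CPM in the other basal libraries, and Hp was 2.09 CPM in basal replicate 3 against 0.273 to 0.688 CPM. Tnfsf11 was 0 CPM in basal replicate 4 against 0.0599 to 0.0774 CPM, which is a single count in each of the others. Among luminal libraries Dusp1 was highest in replicate 2, at 135 CPM, and the rest held 86.6 to 100.1 CPM. These were 5 of 80 gene and group combinations checked by the gap of an extreme library to its nearest neighbour, of which chance flags about 5%.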

How the results depend on the processing

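Prlr, Jak2, Stat5a, Stat5b and Stat6 kept their direction and call under all alternatives that gave a value, with log2 fold changes of 9.89 to 10.74, 1.33 to 1.59, 1.64 to 2.15, 0.82 to 1.21 and -0.69 to -0.43. Requiring 10 counts in each library leaves Prlr out, so it gave no value. Of the 10 genes, 4 were called higher in basal cells, but 1 with upper-quartile factors, 1 with library totals alone, and 2 to 3 when a library was left out. The number called higher in luminal cells was 4 to 5, and the number not overlapping 5 to 7, when a library was left out. The log2 fold change of Cish turned to 0.051 with upper-quartile factors and to 0.12 with library totals alone, which move the median of all genes by 0.12 and 0.19. With library totals alone 4 kinases and brakes and 3 receptors were higher in basal cells. With 10 counts required in every library fewer genes were tested. Under that filter 2 ligands were higher in basal and 3 Stat5 and prolactin targets higher in luminal cells. With no filter 2 of those targets were higher in basal cells. Where no value is given for it, the cause was not tested. Same-numbered luminal and basal libraries share a number that the labels do not explain. Their deviations correlated at -0.12 to 0.22, 3 of 10 libraries correlated best with their own number, and the numbers were not taken as pairs. With a replicate block, 9279 genes in place of 9462 were called, and Socs3 (0.42, adjusted p = 0.0637) was not. In the ratios the block left differences of 0.85 (Stat5a to Stat5b), 11.18 (Prlr to Ghr), -0.39 (Socs2 to Cish) and -2.31 (Stat3 to Stat5a), whose sign permutation over 5 pairs cannot give a p below 0.0625. When a library was left out, these ratios differed by 0.77 to 1.00, 10.56 to 11.54, -0.44 to -0.27 and -2.48 to -2.18, and Stat3 to Stat6 by 0.04 to 0.24. Depth limits mainly Prlr in basal cells, with 1 to 35 counts per library.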
